A study of Homo sapiens with 16 samples.

Results

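MCF10HER2 cells were compared between 2 windows of 4 arrays each during treatment with CP724,714, which blocks the kinase activity of HER2: 12, 15, 18 and 21 h against 24, 27, 30 and 33 h after addition of the inhibitor. These 8 arrays are those of the 16 in the series whose labelled treatment time falls between 12 and 33 h, and a probe was tested where its detection p-value was under 0.05 on at least 4 of the 8, which left 11035 of 20589 probes with 10470 symbols. MCF10HER2 is a human breast epithelial line made from the nontransformed line MCF10A by stable over expression of HER2 (gene symbol ERBB2). All 8 cultures received CP724,714 at 1 µM in medium that held epidermal growth factor and hydrocortisone and, according to the methods of the study, no insulin. RNA came from parallel cultures of 1 line, taken every 3 h, with 1 array per time point. No culture kept without inhibitor for 12 to 33 h was analysed here. The 4 arrays of a window are therefore successive times and not replicates of a condition. Each limma p-value below sets a difference against the spread between these time points, which may be technical. For differences of window means that spread includes any course within a window. The fits with a slope in hours take out a linear course, and the block by hour takes out a course that both windows share. The question was how stable the transcriptome stayed into the second day of HER2 inhibition and what changed between the windows.

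HER2 is a receptor tyrosine kinase that signals through the MAPK and PI3K pathways and drives growth and division of breast epithelial cells. Dividing cells switch on their genes in waves: the enzymes and helicases of DNA replication are made around S phase, and the cyclins, kinesins and checkpoint kinases of mitosis are made in G2 and M phase and lost as a cell divides. In a culture, the signal of such genes follows the share of cells in each phase as well as the amount of RNA per cell, and fewer cells of a kind and less RNA per cell cannot be told apart in these bulk samples. Basal-type breast epithelial cells also carry a program of stratified epithelium, with keratins of the stress type, kallikreins and S100 proteins.

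The background of the arrays changed between the windows. The median intensity of 6769 probes detected on none of the 16 arrays was 153.5, 147, 146.8 and 144.7 at 12, 15, 18 and 21 h and 176.1, 185.3, 183.6 and 184.7 at 24, 27, 30 and 33 h. The later mean was 1.23 times the earlier (182.4 ± 4.28 against 148 ± 3.81, SD, n = 4 arrays per window; exact permutation test, two-sided, p = 0.0286, the smallest that 4 against 4 arrays allows). Since each window lies wholly on 1 side of this change, window and array background cannot be told apart. The change of background at 24 h was known before this test was run, and the arrays are successive times, so the p-value adds no support to the values. The number of probes detected ranged from 10363 to 11117 in the earlier window and from 10856 to 11436 in the later one. The 18 h array was dim, with an upper quartile of 418 against 558 to 804 on the other 7 arrays. The 24 h array stood apart from its window: 25 probes differed by 1.7-fold or more from the mean of the other 3 arrays, 8 higher and 17 lower, against 6 or fewer on each other array. Of the markers of basal breast epithelium, 8 of 10 were detected on all 8 arrays, and 8 of 11 luminal markers were. Of the fibroblast, immune and endothelial markers, 2 of 10, 3 of 10 and 3 of 8 were detected on all 8 arrays, and 6, 5 and 4 on none. Those on all 8 were DCN and FAP (fibroblast), CD14, CD68 and CSF1R (immune) and PECAM1, KDR and ERG (endothelial). Among those on none were COL1A1 and COL1A2 (fibroblast), CD3D, CD3E and MS4A1 (immune) and VWF and CDH5 (endothelial). The 2 ERBB2 probes were detected on 1 and 2 of the 8 arrays and lay between 7.91 and 8.01 on the log2 scale, so these probes give no check of the over expressed HER2.

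Quantile normalization gives every array the same distribution of signals, so a shift shared by most probes would not show in the differences below. Before normalization, the upper quartile of intensity averaged 543.4 in the earlier window and 756 in the later, 1.39 times as high. On the normalized scale, most probes kept their level between the windows. For 10971 of the 11035 probes (99.4%) the 95% interval of the difference lay within 1.7-fold in either direction, and among the brighter probes the share was 98.8%. Bright here means a mean normalized log2 signal over the 8 arrays above the median of all probes tested. The median size of the difference was 0.042 on the log2 scale over all probes and 0.088 over bright ones. By limma, 143 probes (1.3%) differed between the windows at an adjusted p under 0.05, which is what "passed the test" means below. Of these, 58 (0.526%) were higher in the later window and 85 (0.77%) lower. At an unadjusted p under 0.05 there were 1899 probes. When arrays were scaled to a common median instead, the split was 101 higher and 412 lower, with the median of all probes at -0.02. Of the 143 probes, 112 were bright and 31 dim, and 68 of the bright ones were lower (1.23% of bright probes). The share that passed grew with signal, from 0.362% among the dimmest of 4 equal sets of probes through 0.761% and 1.16% to 2.9% among the brightest. Probes detected on none of the 8 arrays had a median difference of -0.001. Because the normalization adds an offset, the difference of a dim probe understates its fold.

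**Figure D1:**
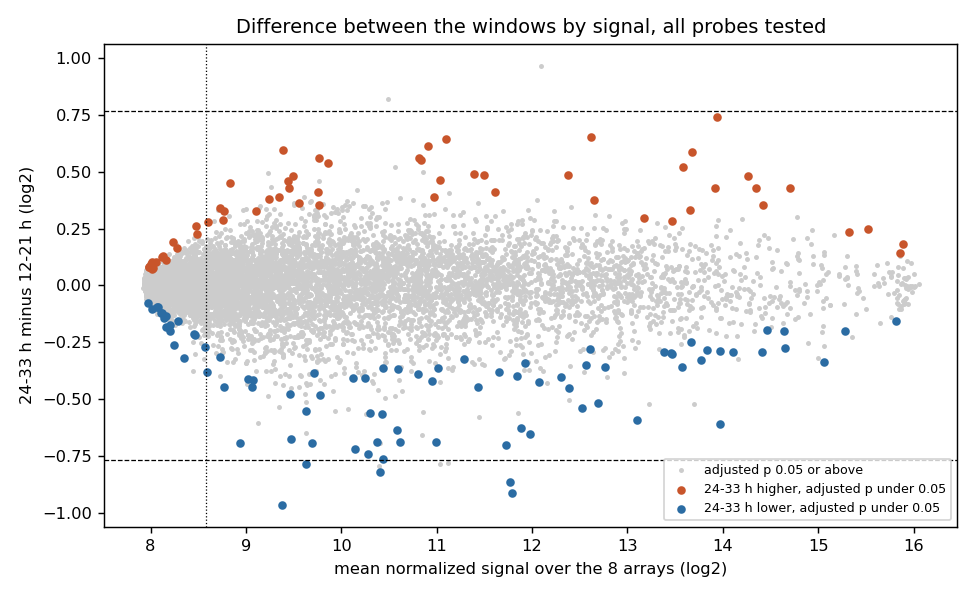
Difference between the windows (24-33 h minus 12-21 h, log2) against mean normalized signal over the 8 arrays (log2) for the 11035 probes tested, with the 58 higher and 85 lower probes in colour, dashed lines at 1.7-fold and a dotted line at the median signal. Nearly all probes lie inside the dashed lines, and 112 of the 143 coloured probes lie to the right of the dotted line.

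A difference of 1.7-fold or more, the fold the methods required of a gene in the time course, was found for 10 probes, 2 higher and 8 lower, and 5 of them passed the test, all lower. The windows did not overlap for 518 probes with all later arrays above (4.69%) and for 525 with all later arrays below (4.76%), and 134 of the 143 probes that passed were among them. The number that passed depended on single arrays. It was 44 without the 30 h array, 75 without the 15 h array and 79 without the 12 h array, and 97 to 158 without any other. Passing in all 8 such omissions were 40 probes, 15 higher and 25 lower, and 34 of these (11 higher, 23 lower) also passed under 4 other normalizations.

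The 5 falls of 1.7-fold or more were those of IGFBP6, SERPINA3, S100P, CCDC34 and PHF19. IGFBP6, a secreted protein that binds insulin-like growth factors, had log2 signals of 10.05, 9.98, 9.80 and 9.61 at 12 to 21 h and of 9.02, 9.00, 8.74 and 8.83 at 24 to 33 h. Every later array lay below every earlier one, and the fall was 0.96 (SE 0.10, limma adjusted p = 0.000243), or 1.95-fold. SERPINA3, a secreted inhibitor of serine proteases and an acute-phase protein, was flat within each window: 12.26, 12.24, 12.28 and 12.22, then 11.30, 11.48, 11.39 and 11.18. It fell by 0.91 (SE 0.08, limma adjusted p = 3.18e-05), the smallest adjusted p of the comparison. S100P, a calcium-binding protein, lay at 12.23, 12.06, 12.50 and 11.98 and then at 11.81, 11.01, 11.13 and 11.39, 1.82-fold lower. PHF19, a component of Polycomb repressive complexes, fell from 10.11, 10.02, 10.07 and 9.90 to 9.07, 9.38, 9.27 and 9.24, and its other probe had a difference of -0.41 (limma adjusted p = 0.0591). FERMT1, an adaptor of integrins known as kindlin-1, fell by 0.72 (SE 0.10). IGFBP6, SERPINA3, S100P, PHF19 and FERMT1 passed under each omission of 1 array. CCDC34 fell by 0.82 (SE 0.17), but most of the earlier arrays' height came from 12 and 15 h (11.18 and 11.25) and not from 18 and 21 h (10.40 and 10.44). Its call was lost without the 12, 15 or 30 h array, with adjusted p up to 0.0725. ALDOC, a glycolytic aldolase, fell by 0.68 (SE 0.10, limma adjusted p = 0.00253), and of 21 glycolysis genes tested it was the only one to pass, with a list median of -0.05. CD68, a lysosomal membrane protein that is also a macrophage marker, fell by 0.64 (SE 0.09), while CSF1R, the other macrophage marker that passed, rose by 0.43. Of the 10 immune markers 5 were detected on none of the 8 arrays, and their summed linear signal was 4296 to 4840 in the earlier window and 3945 to 4178 in the later. The part of other cells in these 2 changes was not tested.

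The largest rise that passed was that of KRT17, and no rise that passed reached 1.7-fold. KRT17, a keratin of basal and stressed epithelium, had log2 signals of 13.55, 13.43, 13.73 and 13.58 and then of 14.63, 14.10, 14.13 and 14.38. The rise was 0.74 (SE 0.10, limma adjusted p = 0.00171), or 1.67-fold, with the highest value at 24 h. ABCC3, a transporter that exports conjugated organic anions, rose by 0.65 (SE 0.08, limma adjusted p = 0.000773), from 12.12 to 12.40 in the earlier window to 12.83 to 13.06 in the later. Its other probe, dim at a mean of 7.98 in both windows, had a difference of 0.0035 (limma adjusted p = 0.943). ITGB2, the beta subunit of leukocyte-type integrins, rose by 0.61 (SE 0.09), and CRYAB, a small heat shock protein, rose by 0.59 (SE 0.10). SAT1, which acetylates polyamines and is listed under its older symbol SAT, rose by 0.59 (SE 0.10) and also drifted upward within both windows (0.44 per 9 h, SE 0.08). The kallikreins KLK5, KLK6 and KLK7, secreted serine proteases of squamous epithelium, rose by 0.48, 0.56 and 0.52. KLK5 went from 13.97 to 14.08 in the earlier window to 14.40 to 14.57 in the later, and its adjusted p was 0.000243 by limma. SCNN1B, a subunit of the epithelial sodium channel, rose by 0.56 (SE 0.13), and LOC144501, a locus with no current symbol here, rose by 0.64. Later arrays were above all earlier ones for each of these 10, which were picked among rises that passed. The windows did not overlap for 134 of all 143 probes that passed, and 4.69% of all probes tested had every later array above. Beyond a common slope in hours, the difference between the windows was 0.0003 (SE 0.12) for SAT1 and -0.07 (SE 0.19) for SCNN1B. The slope of SCNN1B was 0.47 per 9 h (SE 0.13). KRT17, ABCC3, ITGB2, CRYAB, SAT1, KLK5 and KLK7 passed under each omission, whereas KLK6 and LOC144501 were lost without the 15 or 30 h array (adjusted p up to 0.0785) and SCNN1B without any of the 12, 15, 27, 30 and 33 h arrays (adjusted p up to 0.149). The summed linear signal of the 10 basal markers, of which KRT17 is one, was 109400 to 114600 in the earlier window and 122900 to 142000 in the later, and the part of the share of basal cells in these rises was not tested.

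**Figure D2:**
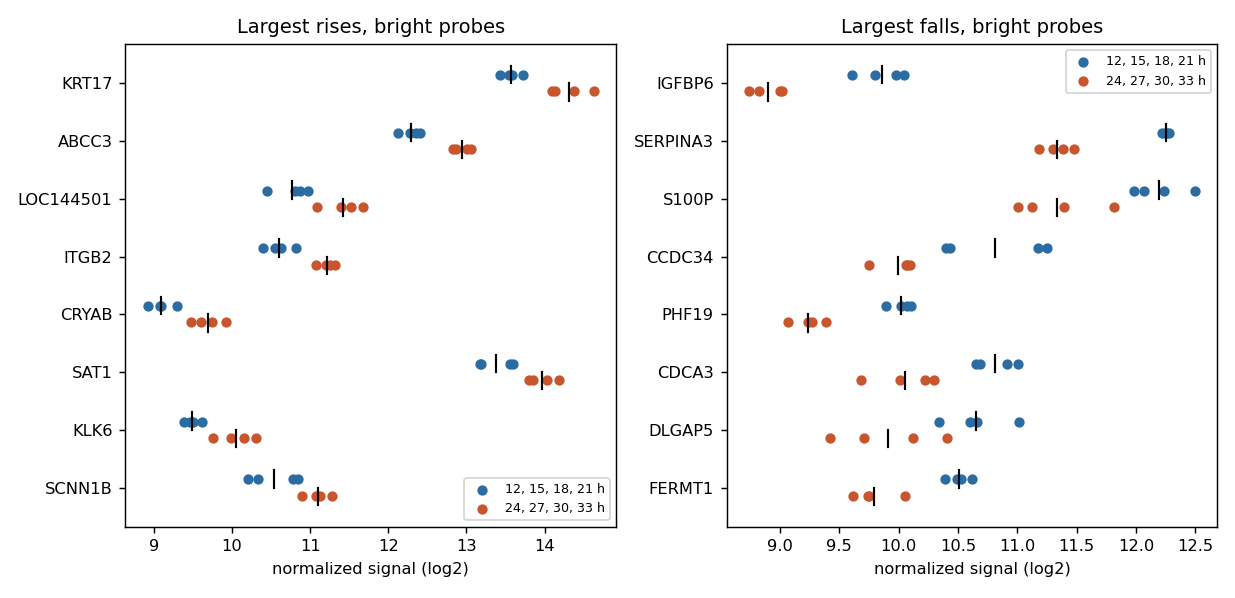
Normalized log2 signal on each of the 8 arrays for the 8 largest rises and the 8 largest falls among bright probes that passed the test, 12 to 21 h in blue, 24 to 33 h in orange, black ticks at the window means. The windows do not overlap for 15 of the 16 genes, the exception being DLGAP5, and for 134 of all 143 probes that passed.

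Dim genes that passed moved less on this scale. NCMAP rose by 0.26 (SE 0.04), RGMA, a guidance molecule of neurons, by 0.23 (SE 0.05) and UNC5A, a netrin receptor, by 0.19 (SE 0.04). CALB2, a calcium-binding protein, fell by 0.32 (SE 0.05), WFDC3, a protease inhibitor-like protein, by 0.27 (SE 0.06) and CA9, a carbonic anhydrase induced by hypoxia, by 0.26 (SE 0.03). NCMAP, CALB2 and CA9 passed under each omission. RGMA and UNC5A passed in 2 of the 8 omissions and WFDC3 in 1, with adjusted p up to 0.131.

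The genes of mitosis were lower together in the later window. Of the 40 tested genes of a mitosis and G2/M list, all 40 had a lower mean in the later window, with a median difference of -0.39, against a median of 0.0039 over 10434 genes with 1 probe each. Of the 40, 6 passed the test of the window difference (BUB1B, CKS1B, DLGAP5, MAD2L1, TOP2A and UBE2C). This count depended on the scaling and on single arrays: it was 30 with median scaling, 1 without the 15, 18 or 30 h array, 2 without the 27 h array, 3 without the 21 or 24 h array, 5 without the 12 h array and 9 without the 33 h array. The median of the list, relative to each gene's mean over the 8 arrays, was 0.005, 0.19, 0.21 and 0.33 at 12, 15, 18 and 21 h. It then dropped to -0.53 at 24 h and climbed again through -0.25 and -0.04 to 0.05 at 33 h. On the arrays of 36 to 45 h it lay between -0.67 and -0.36. In each window taken alone 37 of the 40 genes had a rising slope in both, against 2839 of 10434 genes overall. Median scaling, cyclic loess and the 3 other normalizations left all 40 below 0, with list medians of -0.44 to -0.37.

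This course was measured as a step between the windows beyond a common slope in hours, in limma. The step was lower at an adjusted p under 0.05 for 94 probes (0.852%) and higher for 18 (0.163%), and 28 of the 40 mitosis genes were among the former and none among the latter. With median scaling the split of steps was 134 lower and 69 higher. The median step of the list was -0.996, against 0.0054 over all genes. The slope was rising for 79 probes (0.716%) and falling for 41 (0.372%), and 19 of the 40 mitosis genes rose, with a list median of 0.41 per 9 h. With median scaling 104 probes rose and 135 fell. Step and slope come from 1 fit to the same 8 arrays, and an error that raises the slope lowers the step. Without the 24 h array, the step was lower for 18 of the 40 genes and for 59 probes in all, and without the 21 h array for 23 and 60. With the hour of the window as a block, so that each array was set against the one 12 h later, 31 of the 40 passed as lower, of 305 lower and 234 higher probes in all. This setting was chosen after seeing the data.

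KIF20A, a kinesin of the central spindle, rose from 11.06 at 12 h through 11.45 and 11.61 to 11.90 at 21 h, was at 9.65 at 24 h and rose again through 10.53 and 11.24 to 11.49 at 33 h. Its step was -2.57 (SE 0.27, limma adjusted p = 4.29e-05) and its slope 1.34 per 9 h (SE 0.18). CCNB1, the cyclin that activates CDK1 at the entry to mitosis, went from 10.33, 10.55, 10.94 and 11.33 to 9.15, 9.91, 10.23 and 10.69. Its step was -2.46 (SE 0.19, limma adjusted p = 2.88e-06) and its window difference, -0.79 (SE 0.25), did not pass (limma adjusted p = 0.118). HMMR, a spindle-associated hyaluronan receptor, had signals of 10.73, 11.14, 11.19 and 11.66 and then of 9.68, 10.44, 10.86 and 11.11, a step of -2.16 (SE 0.21). CENPA, the histone H3 variant of centromeres, had signals of 11.11, 11.46, 11.53 and 11.60 and then of 9.75, 10.64, 11.05 and 11.15, a step of -2.02 (SE 0.27). TROAP, a microtubule-associated protein of the spindle, had a step of -2.07 (SE 0.21). In each of these 5 genes the 24 h array was the lowest of the 8, and the windows overlapped. The 5 steps passed under each omission of 1 array. Other mitotic kinases and regulators followed the same course: AURKA (listed as STK6) was at 12.42 at 21 h, 10.82 at 24 h and 12.07 at 33 h, CDC20 at 14.26, 12.71 and 13.81, and CCNB2 at 12.94, 11.37 and 12.55. CDCA3, a regulator of mitotic entry, had the window difference and the step at once, with -0.76 (SE 0.12) and -1.43 (SE 0.16), and so had HMGB2, a chromatin protein, with -0.70 (SE 0.11) and -1.20 (SE 0.17). TOP2A, the topoisomerase of mitotic chromosomes, fell by 0.63 (SE 0.11, limma adjusted p = 0.00969) and kept its call under each omission. DLGAP5, a spindle protein listed as DLG7, kept its call in 2 of the 8 omissions and UBE2C, the ubiquitin-conjugating enzyme of the anaphase-promoting complex, in 3. Dimmer probes of UBE2C, at means of 8.03 and 8.47 in the earlier window, had differences of -0.05 and -0.12 (limma adjusted p = 0.288 and 0.485).

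**Figure D3:**
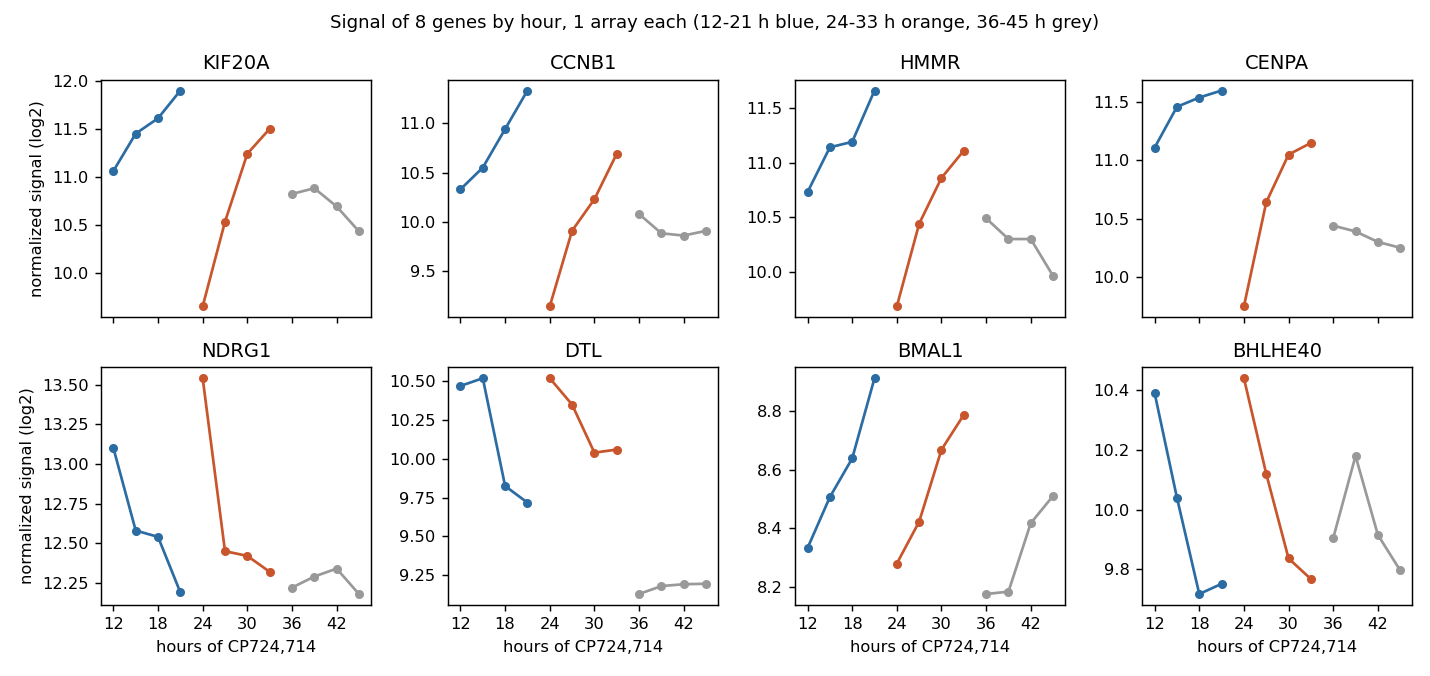
Normalized log2 signal by hour of treatment for KIF20A, CCNB1, HMMR, CENPA, NDRG1, DTL, BMAL1 and BHLHE40, 1 array per point, with 12-21 h in blue, 24-33 h in orange and 36-45 h in grey. Each gene runs the same way from the first to the last array of both windows and jumps back at 24 h, as CCNB1 does from 11.33 at 21 h to 9.15 at 24 h.

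The promoters of these genes are shown because mitotic genes are known to share 2 short elements, the CHR (letters TTTGAA) and the CCAAT box. Both were searched on both strands in RefSeq promoters (build GRCh38.p14) from 250 bases before to 50 bases after the start of each gene, and each motif was counted on its own even where the 2 shared letters. TTTGAA was present in 15.4% of all 27305 promoters. It was present in 28 of 70 promoters (40%) of genes with a lower step, in none of 9 with a higher step, in 23 of 34 (67.6%) of the mitosis list and in 1 of 37 (2.7%) of the DNA replication list. CCAAT was present in 35.7% of all promoters, in 46 of the 70 (65.7%), in 4 of the 9 (44.4%), in 28 of the 34 (82.4%) and in 21 of the 37 (56.8%). The lower-step and mitosis sets share genes. The 27305 promoters include those of genes not tested here, and no share was taken over the tested genes alone. Among genes that passed as lower in the window difference, TTTGAA was in 13 of 62 promoters (21%) and CCAAT in 25 (40.3%). Among those higher, TTTGAA was in 2 of 42 (4.76%) and CCAAT in 20 (47.6%). TTTCCCGC, an E2F-type sequence, was present in 1.66% of all promoters, in 9 of the 37 replication genes (24.3%) and in 1 of the 34 mitosis genes. These matches are a description of the letters and no measure of binding. The 250 bases before the start follow for 6 genes, 5′ to 3′ on the gene's own strand in lower case, with TTTGAA and CCAAT, or the same read from the other strand (TTCAAA and ATTGG), in capitals. They lie at chr5:163460382-163460631 (HMMR, plus strand), chr2:26785806-26786055 (CENPA, plus), chr14:55191586-55191835 (DLGAP5, minus), chr17:40417897-40418146 (TOP2A, minus), chr5:69166900-69167149 (CCNB1, plus) and chr5:138178862-138179111 (KIF20A, plus).
HMMR: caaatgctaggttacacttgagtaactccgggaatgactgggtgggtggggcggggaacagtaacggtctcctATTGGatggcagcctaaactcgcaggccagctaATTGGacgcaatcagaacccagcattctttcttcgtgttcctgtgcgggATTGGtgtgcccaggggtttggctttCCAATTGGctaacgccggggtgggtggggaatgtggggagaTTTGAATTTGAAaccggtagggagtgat
CENPA: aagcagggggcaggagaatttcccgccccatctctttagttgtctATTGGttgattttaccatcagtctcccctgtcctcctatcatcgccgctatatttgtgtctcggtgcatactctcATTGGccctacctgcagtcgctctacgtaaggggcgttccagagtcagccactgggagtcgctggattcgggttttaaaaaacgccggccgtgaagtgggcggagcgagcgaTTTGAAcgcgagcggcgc
DLGAP5: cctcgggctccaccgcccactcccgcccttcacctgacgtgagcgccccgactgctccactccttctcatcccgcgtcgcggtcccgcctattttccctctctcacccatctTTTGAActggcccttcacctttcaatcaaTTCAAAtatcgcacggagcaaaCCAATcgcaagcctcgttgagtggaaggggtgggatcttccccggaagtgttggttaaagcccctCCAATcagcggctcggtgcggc
TOP2A: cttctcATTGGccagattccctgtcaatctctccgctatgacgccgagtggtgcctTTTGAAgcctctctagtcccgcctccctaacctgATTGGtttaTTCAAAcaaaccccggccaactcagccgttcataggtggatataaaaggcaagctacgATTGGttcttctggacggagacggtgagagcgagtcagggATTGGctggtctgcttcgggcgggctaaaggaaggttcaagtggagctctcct
CCNB1: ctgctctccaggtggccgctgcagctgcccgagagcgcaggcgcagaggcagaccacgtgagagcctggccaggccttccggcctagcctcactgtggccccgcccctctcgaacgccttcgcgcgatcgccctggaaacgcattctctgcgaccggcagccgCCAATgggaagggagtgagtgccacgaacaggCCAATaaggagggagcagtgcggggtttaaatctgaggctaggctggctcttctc
KIF20A: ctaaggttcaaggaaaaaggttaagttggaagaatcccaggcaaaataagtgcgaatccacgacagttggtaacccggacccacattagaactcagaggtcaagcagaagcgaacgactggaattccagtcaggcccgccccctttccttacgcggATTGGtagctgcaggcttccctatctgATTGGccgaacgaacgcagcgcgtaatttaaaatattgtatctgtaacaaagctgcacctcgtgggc
In HMMR 2 copies of TTTGAA stand within 28 bases of the start, in CENPA 1 copy stands 18 bases before it, and the CCAAT boxes lie farther upstream. DLGAP5 and TOP2A hold TTTGAA at more than 100 bases from the start. CCNB1 and KIF20A, which had the 2 largest steps, hold 2 CCAAT boxes each and no TTTGAA in the printed stretch. Only the exact letters were searched, so the absence of TTTGAA does not show that a variant of the CHR is absent.

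Genes of DNA replication and S phase ran the other way within the windows. Of the 43 tested, 34 had a falling slope in both windows, against 2911 of 10434 genes overall. The list median was 0.145, 0.06, -0.06 and -0.09 at 12 to 21 h, was 0.08 at 24 h and reached -0.06 and -0.09 at 30 and 33 h. The median difference between the windows was -0.015, and only TK1, a thymidine kinase, passed the test, lower by 0.38 (SE 0.08, limma adjusted p = 0.028). TK1 lost its call in 7 of the 8 omissions, with adjusted p up to 0.0756. DTL, an adaptor of the ubiquitin ligase that destroys CDT1 in S phase, had signals of 10.47, 10.52, 9.83 and 9.72 and then of 10.52, 10.35, 10.04 and 10.06, and its step was 1.04 (SE 0.20). CCNE2, a cyclin of S phase entry, was at 8.34 at 21 h and at 8.89 at 24 h, with a step of 0.60. ATAD2, a chromatin protein, had a step of 0.98 (SE 0.18). The steps of DTL and ATAD2 were lost without the 21 or 24 h array, with adjusted p up to 0.234. The slope passed as falling for DTL, FEN1, GINS2, MCM5 and ORC1, and for 40 of the 10434 genes overall.

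**Figure D4:**
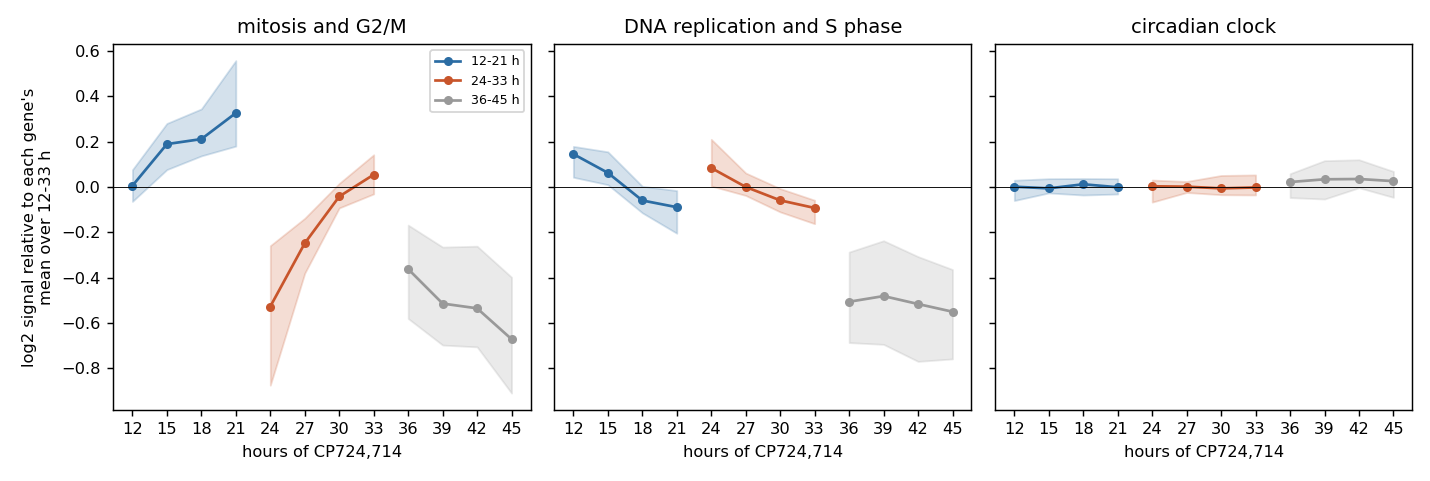
Median log2 signal of 3 gene lists by hour, relative to each gene's mean over 12-33 h, with the band from the first to the third quartile over the genes of a list (40 mitosis, 43 replication and 19 clock genes). The mitosis list climbs within 12-21 h and again within 24-33 h from a lower start, the replication list falls within both, and the clock list as a whole stays near 0.

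Outside the cell cycle the largest steps up were in NDRG1, GLIPR1 and FLNA. NDRG1, a stress and hypoxia responsive gene, fell from 13.10 through 12.59 and 12.54 to 12.19 in the earlier window, stood at 13.54 at 24 h and was at 12.45, 12.42 and 12.32 afterwards. Its step was 1.37 (SE 0.25, limma adjusted p = 0.00597) and its window difference 0.08 (SE 0.22). GLIPR1, a secreted protein, had signals of 10.21, 9.77, 9.67 and 9.08 and then of 10.10, 9.56, 9.39 and 9.38, a step of 1.09 (SE 0.20). FLNA, an actin crosslinker, was at 8.92 at 21 h and at 9.92 at 24 h, a step of 1.08 (SE 0.16) that passed under each omission, while those of NDRG1 and GLIPR1 were lost without the 21 or 24 h array (adjusted p up to 0.255). Of the hypoxia list, 20 genes were tested, with 1 lower in the window difference (CA9) and 2 steps up (NDRG1 and BHLHE40). Of all 10434 genes with 1 probe each, 82 were lower in the window difference and 18 had a step up.

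Of the 19 clock genes 0 passed the test of the window difference by limma, with 5 at an unadjusted p under 0.05 and a median of 0.016. Of these genes 3 had a step, 1 up and 2 down, against 18 up and 89 down of 10434 genes with 1 probe each. BMAL1 (listed as ARNTL), the activator of the circadian clock, had signals of 8.33, 8.51, 8.64 and 8.91 and then of 8.28, 8.42, 8.67 and 8.79. BHLHE40 (listed as BHLHB2), a repressor in the clock loop, had 10.39, 10.04, 9.72 and 9.75 and then 10.44, 10.12, 9.84 and 9.77. The arrays 12 h apart had nearly the same value in both genes, and the steps were -0.79 for BMAL1 (limma adjusted p = 0.000212) and 0.97 for BHLHE40 (limma adjusted p = 0.00529). NPAS2, the partner of BMAL1, went from 8.12 to 8.28 and again from 8.11 to 8.29, with a step of -0.23. Not every clock gene repeated its values in this way. PER2 had 9.821, 9.846, 9.667 and 9.165 and then 9.385, 9.612, 9.337 and 9.155. BMAL1, BHLHE40 and PER2 were chosen for the text after their values were seen.

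The repetition held across the table to a limited degree. The slope of 12 to 21 h and that of 24 to 33 h, which share no array, had a Pearson's r of 0.36 and a Spearman's rho of 0.28 across 5517 bright probes, of which 3222 (58.4%) had the same sign, and an r of 0.24 across 5518 dim probes. These are values across genes, which are not independent of each other, and all arrays share 1 normalization. No probe had a slope that differed between the windows at an adjusted p under 0.05 by limma (smallest adjusted p = 0.342), with 589 at an unadjusted p under 0.05. Median scaling gave 28 such probes and array weights 3, and leaving out the 24 h array gave 4. Within the windows, a slope of 1.7-fold or more over 9 h was found for 41 probes at 12 to 21 h (18 rising, 23 falling) and for 29 at 24 to 33 h (23 rising, 6 falling).

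The jump at 24 h was the largest change between neighbouring arrays of the 2 windows. Taken as the root mean square (RMS) over the 11035 probes, the log2 difference was 0.114 from 12 to 15 h, 0.158 from 15 to 18 h, 0.122 from 18 to 21 h and 0.182 from 21 to 24 h. It was 0.17 from 24 to 27 h, 0.121 from 27 to 30 h and 0.095 from 30 to 33 h, and then 0.216 from 33 to 36 h. From 21 to 24 h, 15 probes rose and 56 fell by 1.7-fold or more, against 14 and 16 from 24 to 27 h. The counts were 2 and 10 from 15 to 18 h and 0 and 0 from 18 to 21 h. Between arrays of different windows the median RMS was 0.161 over 16 pairs, against 0.148 and 0.142 over the 6 pairs within each window. Without the 24 h array, the median between windows was 0.156 over 12 pairs. The pairs within the later window were then at 0.121 (27 and 30 h), 0.133 (27 and 33 h) and 0.095 (30 and 33 h). Arrays set 12 h apart drew nearer over the window: 60 probes differed by 1.7-fold between 12 and 24 h, 26 between 15 and 27 h, 13 between 18 and 30 h and 6 between 21 and 33 h.

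**Figure D5:**
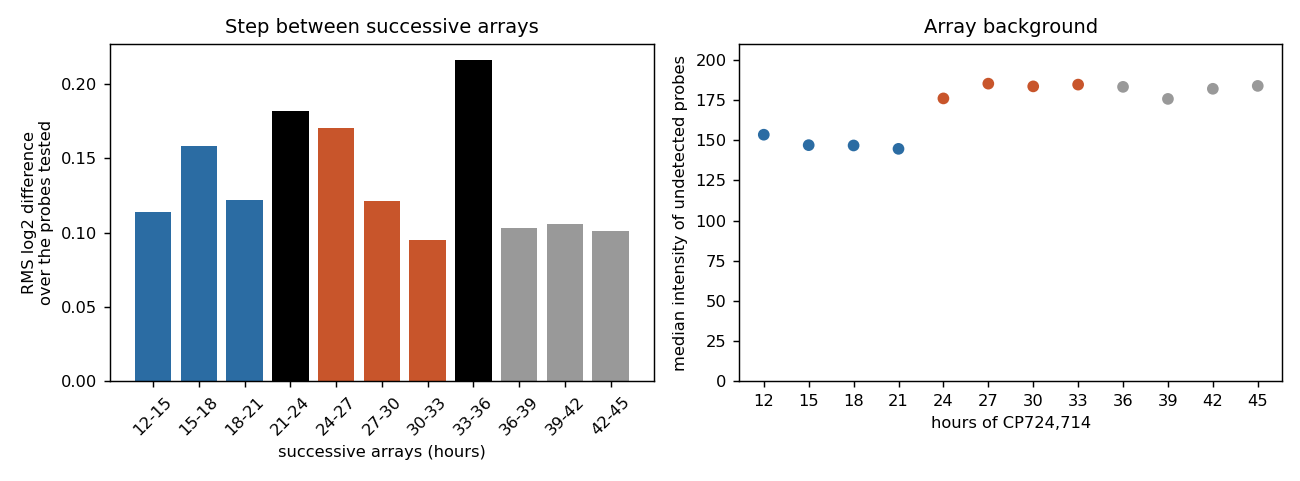
Left, RMS log2 difference between successive arrays over the probes tested, with steps inside 12-21 h in blue, inside 24-33 h in orange, inside 36-45 h in grey and steps from window to window in black. Right, median intensity of the 6769 undetected probes by hour, at 153.5 or below from 12 to 21 h and at 176.1 or above from 24 to 33 h.

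CDC14B, a phosphatase, had the largest difference of all without passing the test, and was chosen for this after its values were seen. Its signals were 11.69, 11.57, 11.68 and 11.50, then 13.64, 11.39, 12.45 and 12.81, a difference of 0.96 (SE 0.29, limma adjusted p = 0.106). The later arrays spanned a wider range than the difference itself, the 24 h array was the highest, and the 27 h array was below all earlier ones. ATP6V1B1, a subunit of the vacuolar proton pump, rose steadily instead, from 9.56 at 12 h to 11.12 at 33 h, with a window difference of 0.82 (limma adjusted p = 0.055) and a slope of 0.89 per 9 h (SE 0.15).

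Most other lists had few or no members past the test. Squamous differentiation split, with 4 of 31 genes higher (KLK5, KLK6, KLK7 and KRT16), 2 lower (S100P and PI3) and a median of 0.006. PI3, an elastase inhibitor of the skin, fell by 0.56 (SE 0.10) with a step of -0.98, and its call was lost without the 30 h array (adjusted p = 0.0704). Of 15 NF-kB and inflammation genes 3 passed as lower. LCN2, a secreted iron-scavenging protein, fell by 0.38 (SE 0.05, limma adjusted p = 0.00205) with a slope of 0.02 per 9 h, and CXCL1, a neutrophil chemokine, and SOD2, the mitochondrial superoxide dismutase, fell by 0.42 and 0.40. LCN2 passed under each omission, CXCL1 and SOD2 in 2 of 8. CXCL8 (listed as IL8) climbed from 8.32 to 8.98 in the earlier window and stood at 8.27, 8.11, 8.19 and 8.46 in the later, with a step of -0.97 and a window difference that did not pass (limma adjusted p = 0.0956). The list median was -0.014. LCN2 was also the only 1 of 20 glucocorticoid responsive genes to pass, and SOD2 the only 1 of 19 FOXO targets.

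NRF2 targets had 3 of 21 genes higher, ABCC3 and the ferritin chains FTH1 (0.28, SE 0.06) and FTL (0.23, SE 0.04), and 1 lower, AKR1B10 (-0.12). With median scaling FTL and FTH1 did not pass (adjusted p of 1 and 0.725), and FTH1 was also lost without the 12, 15 or 33 h array (adjusted p up to 0.0684). Heat shock genes had 2 of 17 higher, CRYAB and HSPA1A (0.49, SE 0.11, lost in 6 of 8 omissions), with a median of 0.11 and 15 of 17 above 0. Of the MAPK feedback list DUSP5, a nuclear phosphatase of ERK, rose by 0.46 (SE 0.08) and was the only 1 of 22 to pass, and it passed under each omission. FADS3, a desaturase family member, was the only 1 of 15 fatty acid synthesis genes (0.48, SE 0.10), and its call was lost without the 12, 15, 30 or 33 h array (adjusted p up to 0.0853). No gene passed among 22 of sterol synthesis, 25 of the amino acid response, 31 of the interferon response, 31 of lysosome and autophagy, 29 of extracellular matrix, 38 of oxidative phosphorylation, 31 of ribosome biogenesis, 21 of the unfolded protein response, 24 p53 targets or 13 of serine synthesis and one-carbon metabolism, by limma in the window difference, with 2 to 12 of each list at an unadjusted p under 0.05. Their medians lay between -0.05 and 0.08. For comparison, 56 genes rose and 82 fell among the 10434 with 1 probe each.

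None of the 20 tested genes of a list built around the study passed the test by limma, with 2 at an unadjusted p under 0.05. The list also holds genes that the study reported on as protein, such as IRS1 and IRS2, and EGFR and ERBB3, which it did not report on. VAMP8, a SNARE protein of vesicle fusion, had signals of 13.99, 14.05, 14.17 and 14.05 and then of 13.96, 14.08, 13.98 and 14.02, a difference of -0.05 (SE 0.05, limma adjusted p = 0.677). PHGDH, the first enzyme of serine synthesis, had 12.27, 12.15, 12.01 and 11.96 and then 11.72, 11.90, 11.69 and 11.59. All later values were below all earlier ones, and the difference of -0.37 (SE 0.09) did not pass (limma adjusted p = 0.0508). PHGDH passed in 2 of the 8 omissions and in 6 of 10 other settings, and with the hour of the window as a block its adjusted p was 0.00878. PSAT1, the aminotransferase of the next reaction, and PSPH, the phosphatase that releases serine, had differences of -0.16 (SE 0.08) and -0.08 (SE 0.08).

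The change that came next, from 24-33 h to 36-45 h, was set beside this one. The change from 12-21 h to 24-33 h differed from the next at an adjusted p under 0.05 for 573 probes (5.19%), 315 in which the earlier change was the more positive and 258 in which it was the more negative, in a limma fit of 12 arrays in which both changes share the 24-33 h arrays. With median scaling the split was 188 and 326. In that fit 464 probes passed for this change and 3643 for the next. PSAT1 had -0.16 and then -1.55 (difference between the changes, limma adjusted p = 1.98e-05), and PHGDH -0.37 and then -1.03 (limma adjusted p = 0.0161). DTL had 0.11 and then -1.07 (limma adjusted p = 0.0114). Of the 43 replication genes 40 passed as lower in the next change, and for 20 the pair of changes differed. For the 40 mitosis genes the medians were -0.39 and then -0.26, and the pair differed for 1 gene. Without the 24 h array the count of 573 was 246, and without the 30 h array 299.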

How the data were processed

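The values the authors deposited were the intensity of each probe on each Illumina human Ref-8 v2 array, without normalization between arrays, and beside each a detection p-value against the negative controls of that array. According to the methods, the authors compared arrays after quantile normalization. Here the 16 arrays were background-corrected with neqc (limma 3.58.1, R 4.3.3, offset 16), quantile normalized and expressed as log2 values. Probes with a detection p under 0.05 on at least 4 of the 8 arrays were tested with lmFit and eBayes in limma with a mean-variance trend, and p-values were adjusted by the Benjamini-Hochberg procedure over all 11035 probes, threshold 0.05. Groups followed the labelled treatment time. The step and the slope are the window term and the hour term of 1 model, with the slope given per 9 h; the change that came next was tested in a fit of 12 arrays. Array background was compared by an exact permutation test. Intervals are 95% intervals of the limma fit. Symbols are those of the deposited table unless a newer one from RefSeq is given with it: 8127 tested probes had a current symbol, 2099 matched through a synonym, 787 matched none, and the symbols of 22 read as dates and name no gene here. Of several probes of a gene the brightest is given in lists. Genes were named by a rule: the 8 largest rises and 8 largest falls that passed among bright probes, the 3 of each among dim ones, the 5 largest steps in each direction, up to 3 members that passed in each list, and 4 genes of the study. The genes outside the rule were chosen after their values were seen. A few genes that the rule or the lists hold are not reported here. The windows, the lists and the rule were chosen with earlier results of these data known. Promoters came from a RefSeq table (GRCh38.p14). The tests were checked on simulated data. Alternatives covered normalization, background correction, brightness, the detection filter, 1 probe per gene, the spread model, the fold, the covariates and each array left out. The number of arrays limits the precision.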

Additional observations from a re-analysis of the deposited data

Results flagged for a closer look

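Within a window of 4 arrays, 6 of the 98 sets looked at (49 named probes, 2 windows each) held 1 array far from the other 3, where chance alone gives about 5%. All 6 lay in the later window. At 24 h NDRG1 was at 13.54 against 12.32 to 12.45 on the other 3 arrays, CCDC34 at 9.754 against 10.06 to 10.1, CA9 at 8.216 against 8.07 to 8.085 and RGMA at 8.529 against 8.62 to 8.635. At 33 h PI3 was at 10.27 against 9.92 to 9.961. Also at 33 h FTL was at 15.42 against 15.44, and the other 3 arrays shared 1 value, since they held the same rank in the quantile normalization.

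The change to 24-33 h differed from the change to 36-45 h for 10 of the 49 named probes, by limma's contrast over 12 arrays. Over all probes tested it differed for 573 of 11035 (5.19%). Most of the named probes were picked for their change or step to 24-33 h on these same arrays. Since the change to 24-33 h enters the contrast, this choice can raise the count. The count of 10 therefore cannot be read as an excess over the share of all probes. The first change was the more positive by 1.39 for PSAT1 (adjusted p = 1.98e-05), 1.18 for DTL (0.0114), 0.934 for S100P (adjusted p = 0.0481), 0.892 for ATAD2 (0.0239), 0.698 for TK1 (0.0143), 0.662 for PHGDH (0.0161) and 0.335 for FTL (0.00422). It was the more negative, with differences of -0.814 for CXCL1 (adjusted p = 0.00799), -0.806 for KLK6 (0.0168) and -0.341 for LCN2 (0.0143). KLK6 rose in both changes, by 0.56 and then 1.36, and CXCL1 had -0.42 and then 0.40. Both changes share the 24-33 h arrays.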

How the results depend on the processing

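No paired analysis was possible because the labels pair no array of 1 window with an array of the other; a block that sets arrays 12 h apart side by side pairs them by hour alone. The hour of the window as a block, neqc on the 12 arrays and leaving out both the 18 and 24 h arrays were chosen after seeing the data; neqc on the 8 arrays gives no value for 36-45 h and was not run for the change that came next. The count of 143 probes in the window difference was 513 with median scaling, 67 without the mean-variance trend, 419 with array weights, 5 at 1.7-fold or more, 539 with the hour block, and 44 to 158 when 1 array was left out. The 10971 probes held within 1.7-fold were 20522 of all 20589 probes without a filter, 5451 among bright probes, and 10962 to 10993 when 1 array was left out. The 112 steps were 203 with median scaling, 60 without the trend, 289 with array weights, and 65 to 161 when 1 array was left out. The 120 slopes were 239, 23 and 805 in the same order, 21 at 1.7-fold or more, and 39 to 168 when 1 array was left out. The 0 slopes that differed between windows were 28 with median scaling, 3 with array weights, 11 without the 18 and 24 h arrays, and 0 to 4 when 1 array was left out. The 573 probes whose change differed from the next were 80 at 1.7-fold or more, 218 without the 18 and 24 h arrays, and 246 to 745 when 1 array was left out. The cause of these moves was not tested, beyond the fewer probes tested or arrays fitted. The rise in array background was 1.23, 1.24 and 1.22-fold by its 3 measures. Of the values of the 50 gene results chosen by the rule under alternatives, 833 kept direction and side of the threshold, 148 fell short of it, 9 passed it newly and 0 turned. Of the list medians 542 stayed and 58 moved by more than their spread within windows.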

Other observations

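The course within the third window, 36 to 45 h, was set beside those of the windows before it. Across 5517 bright probes the slope of 24-33 h and that of 36-45 h had a Pearson's r of -0.10 and a Spearman's rho of -0.02, and 2749 probes (49.8%) had the same sign. The slope of 12-21 h and that of 36-45 h had an r of 0.18 and a rho of 0.19, with the same sign for 3092 (56%). The mitosis list median fell from -0.36 at 36 h to -0.67 at 45 h. BMAL1 rose again, from 8.18 at 36 h and 8.18 at 39 h to 8.42 at 42 h and 8.51 at 45 h. No probe had a slope of 1.7-fold or more over the 9 h of this window. These are descriptions across genes, given without a test.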
